A study of Mus musculus with 12 samples.

Results

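Expression of the Slc25a family was followed in hearts of wild-type mice that had ischemia/reperfusion (I/R) or sham surgery and drank plain water or water containing vitamin B12. Slc25a genes encode the mitochondrial carriers, and members were all genes of the deposited expression table whose symbol is Slc25a followed by a number. This rule found 47 of 55487 genes, each with a single row, and 38 of the 47 reached the level needed for a test, against 13001 genes of the whole table. Sham mice had the chest opened without occlusion of the left anterior descending coronary artery. I/R mice had 45 min of occlusion and 24 h of reperfusion. B12 was given at 50 mg/L from 7 days before the procedure, and each mouse drank 4 mL per day. The 4 groups, with 3 libraries each, were the sham-operated Sham and Sham+B12 and the injured I/R and I/R+B12. All groups had the same genotype label (WT), anaesthesia and thoracotomy, and strain, sex, age and the sampled region of the heart are not given in the sources used here. The labels do not state that each library came from a separate mouse, so p-values measure the spread between these libraries.

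Carriers of this family sit mostly in the inner mitochondrial membrane, which small charged molecules cannot cross unaided. They exchange ADP for ATP, import phosphate, acylcarnitines, amino acids, cofactors and iron, and move the carboxylates and amino acids of the malate-aspartate shuttle. Cardiac muscle relies on oxidative phosphorylation, and the ADP/ATP carrier ANT1 (Slc25a4) and the phosphate carrier (Slc25a3) supply the ATP synthase there.

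Levels are FPKM, fragments scaled by transcript length and library depth, which can be set beside each other between genes. Differences are in log2(FPKM + 1), and understate the change of genes at a few FPKM. A member was called when its Benjamini-Hochberg adjusted p from limma, over all 13001 tested genes, was under 0.05. The depth was estimated at 24.75 to 29.25 M fragments per library, and 1 FPKM corresponded to 30.2 to 35.4 fragments for a 1500 nt transcript. Two-sided tests were used throughout.

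The library labelled I/R 3 was nearest to a sham library and the library labelled Sham 3 to an injured one. I/R 3 was closest to Sham 2 (r across genes of 0.982) and had 3.04 FPKM of Lcn2, a gene of acute inflammation, where I/R 1 and I/R 2 had 278.64 and 447.19. Sham 3 was nearest to I/R+B12 1 (r of 0.969) and had 210.48 FPKM of Lcn2, where Sham 1 and Sham 2 had 5.01 and 3.2. I/R+B12 3 was also closest to a library labelled sham, which was Sham 3 (r of 0.955), and had 171.7 FPKM of Lcn2. Whether the labels of I/R 3 and Sham 3 are right is in doubt and was not tested. Labels were kept, and results are also given without these 2 libraries. The tissue label was met by the 8 ventricular cardiomyocyte markers, which summed to between 35488 and 57507 FPKM per library. Their score, the mean log2 level centred over the 12 libraries, was between 0.07 and 0.27 in the 6 sham libraries. Libraries 1, 2 and 3 of I/R scored -0.35, -0.37 and 0.10, and those of I/R+B12 scored -0.26, -0.34 and 0.17. The score therefore stayed in the sham range in the third library of both injured groups. Sham 3 lay with the other sham libraries in this score (0.16). Its neutrophil score, formed the same way, was -0.28, the highest of the sham libraries (-2.35 to -0.93 in the others). That score was above I/R 3 (-1.50), near I/R+B12 3 (-0.12) and below the other 4 injured libraries (2.02 to 3.05). The inflammatory monocyte and macrophage score of Sham 3 was 0.23, above the other sham libraries (-1.37 to -0.65), I/R 3 (-0.54) and I/R+B12 3 (-0.82). In bulk tissue, fewer cardiomyocytes and less RNA per cardiomyocyte cannot be told apart. Among the markers of other cells, the 8 neutrophil markers summed to 1.11 to 65.0 FPKM in sham libraries, 15.1 to 1248 in I/R libraries and 98.6 to 1972 in I/R+B12. The 8 markers of inflammatory monocytes and macrophages had a median difference of 1.38 on normal water (8 of 8 positive) and 1.43 under B12 (7 of 8 positive). Those of resident macrophages had 0.25 and -0.71 (5 of 6 negative under B12, with Folr2 called lower), and those of fibroblasts 0.36 and -0.63 (5 of 6 negative under B12). The fibroblast median was -1.37 between I/R+B12 and I/R, with 6 of 6 negative and none called. Erythroid RNA was present in every library: the markers summed to between 3071 and 16100 FPKM, mostly hemoglobins, while Slc4a1 and Epb42 stayed under 1 FPKM. Of the adipocyte markers Cidea was at 21.8 to 34.4 FPKM and Adipoq, Plin1 and Lep stayed under 1. Of the lymphocyte markers Cd79a reached 1.9 FPKM, and Ms4a1, Cd3e, Cd3d and Cd8a stayed under 1. The part of these cell types in the differences of the carriers was not tested.

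The family spanned a very wide range of levels. Averaged over 12 libraries, 5 members were at 100 FPKM or more, 14 between 10 and 100, 19 between 1 and 10, and 9 under 1. Slc25a4 was the most abundant member, with a mean of 3142 FPKM, and ranked 31 among all genes of the table. Slc25a3, the phosphate carrier, followed at 1262 FPKM and rank 73. Slc25a11, which exchanges 2-oxoglutarate for malate, had 297 FPKM, Slc25a5 (ANT2, the other abundant ADP/ATP carrier) 232, and Slc25a20, the carnitine/acylcarnitine carrier of fatty acid oxidation, 117. Slc25a12 (aralar, 88.6 FPKM), Slc25a39 (a glutathione carrier, 87.2), Slc25a34 (79.0), Slc25a13 (citrin, 37.8) and Slc25a28 (mitoferrin 2, 22.4) completed the 10 highest.

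**Figure D1:**
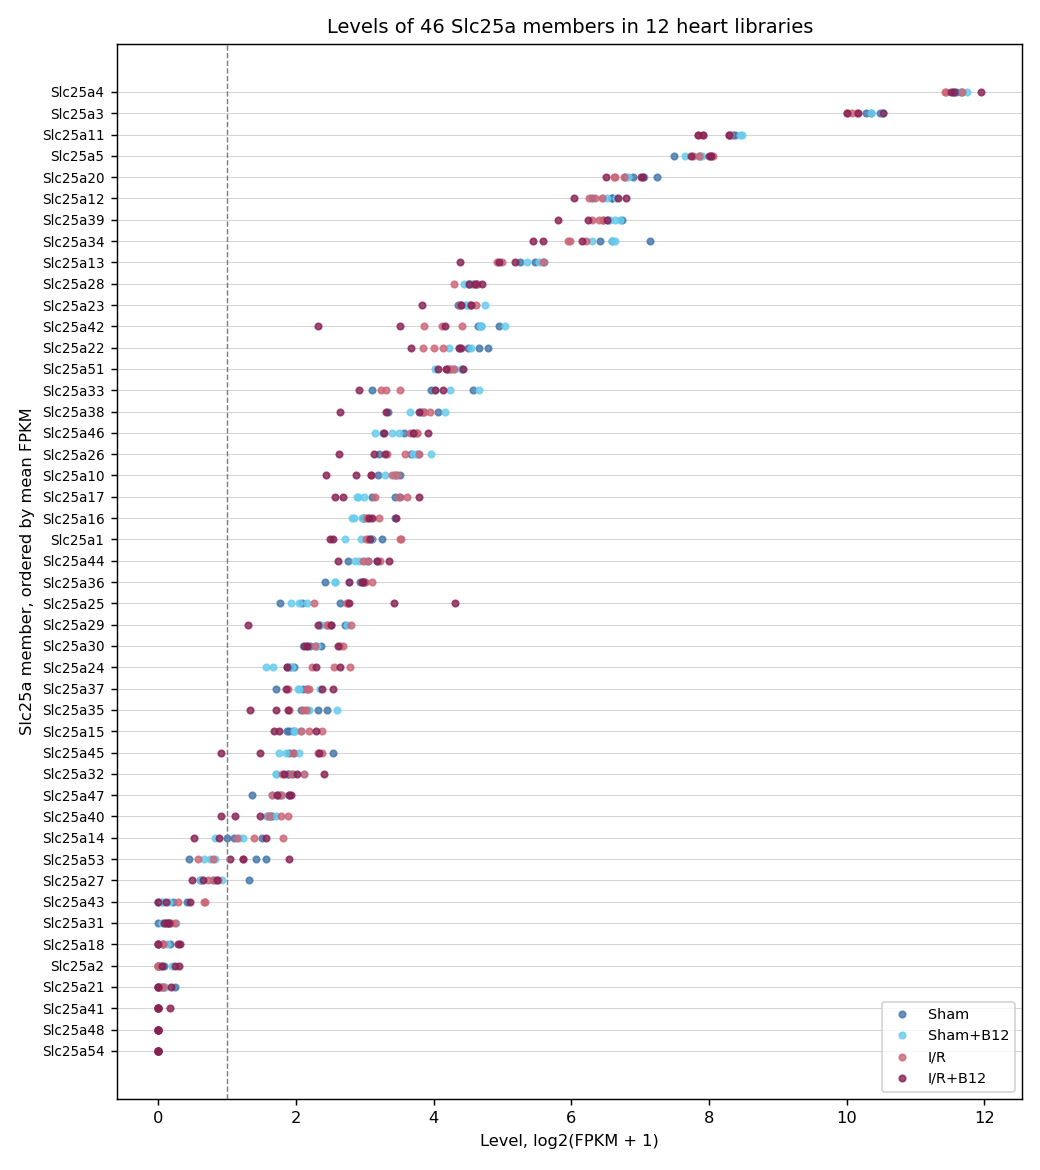
Level of 46 Slc25a members, as log2(FPKM + 1) on the horizontal axis, with one point per library coloured by group; the dashed line marks an FPKM of 1. Slc25a4 and Slc25a3 stand above all other members in every library, and the 9 lowest members have mean levels under 1 FPKM.

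Slc25a4, Slc25a3 and Slc25a11 together held between 82.3% and 86.4% of the summed FPKM of the family in every library. Slc25a4 alone held 54.5% ± 1.29 (SD, n = 3) in Sham, 54.5% ± 2.12 in Sham+B12, 57.1% ± 1.55 in I/R libraries and 58.8% ± 2.41 in I/R+B12. The share of Slc25a3 was 23.3% ± 1.31, 24.0% ± 1.62, 21.1% ± 0.721 and 21.7% ± 0.693 in the same order. The sum over all members was 5705 ± 272 FPKM in Sham, 5924 ± 273 in Sham+B12, 5127 ± 382 in I/R libraries and 5609 ± 944 in I/R+B12. The range of each injured group overlapped that of its own sham group, while all I/R libraries were below all Sham+B12 libraries. No test was made on the shares.

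The 9 members left out of the tests were Slc25a27, an uncoupling protein-like carrier that reached 1 FPKM in 1 library, and Slc25a43, Slc25a31 (ANT4), Slc25a18 (a glutamate carrier), Slc25a2 (an ornithine carrier), Slc25a21, Slc25a41, Slc25a48 and Slc25a54, which reached it in none. Slc25a48 and Slc25a54 were listed at 0 in all 12 libraries. Of the 38 tested members, 34 were at 1 FPKM or more in every library, and no member passed through a single group. The steadiest levels were those of Slc25a28, Slc25a51 (the NAD carrier), Slc25a3 and Slc25a4, whose highest library was 1.33, 1.35, 1.44 and 1.45 times the lowest. Slc25a42 and Slc25a25 spread most among members above 5 FPKM, at 8.02 and 7.82 times.

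The question of how I/R changes the carriers was asked on normal water, under B12, and as the mean of these 2 differences over all 12 libraries (the I/R main effect), which shares its libraries with both. Of the 38 tested members 5 were called under B12, 1 higher and 4 lower, where 10.4% of all tested genes were called (6.78% higher and 3.62% lower). In the main effect 4 of 38 were called, 2 higher and 2 lower, against 10.1% of all genes (8.36% higher and 1.71% lower). On normal water limma called 0 of 38 members and 0 of all genes. At an unadjusted p under 0.05 there were 4 of 38 members on normal water (11.7% of all genes), 13 under B12 (32.3%) and 13 in the main effect (31.3%). With both directions pooled, the shares of called members (13.2% under B12 and 10.5% in the main effect) were close to those of all genes. By direction, 10.5% of members were called lower and 2.63% higher under B12, and 5.26% lower and 5.26% higher in the main effect. The split of all called genes moved with the scaling: 1087 were higher and 222 lower in the main effect, against 592 and 482 with median-ratio scaling and 624 and 719 with quantile normalization. Under B12 it was 882 and 470, against 1047 and 851, and 864 and 927. At an unadjusted p under 0.05 in the main effect, 11 of 38 members were lower (28.9%) and 2 higher (5.26%). Among all tested genes the shares were 9.54% lower and 21.8% higher. Groups did not overlap in 7 of 38 members on normal water (22.4% of all genes), 13 of 38 under B12 (32.4%) and 2 of 38 in the main effect (4.26%). The median difference of the 38 members was 0.03 on normal water, -0.11 under B12 and -0.06 in the main effect, beside 0.13, -0.02 and 0.05 for all tested genes. With median-ratio scaling both medians on normal water moved down alike, to -0.11 for the members and -0.0030 for all genes.

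**Figure D2:**
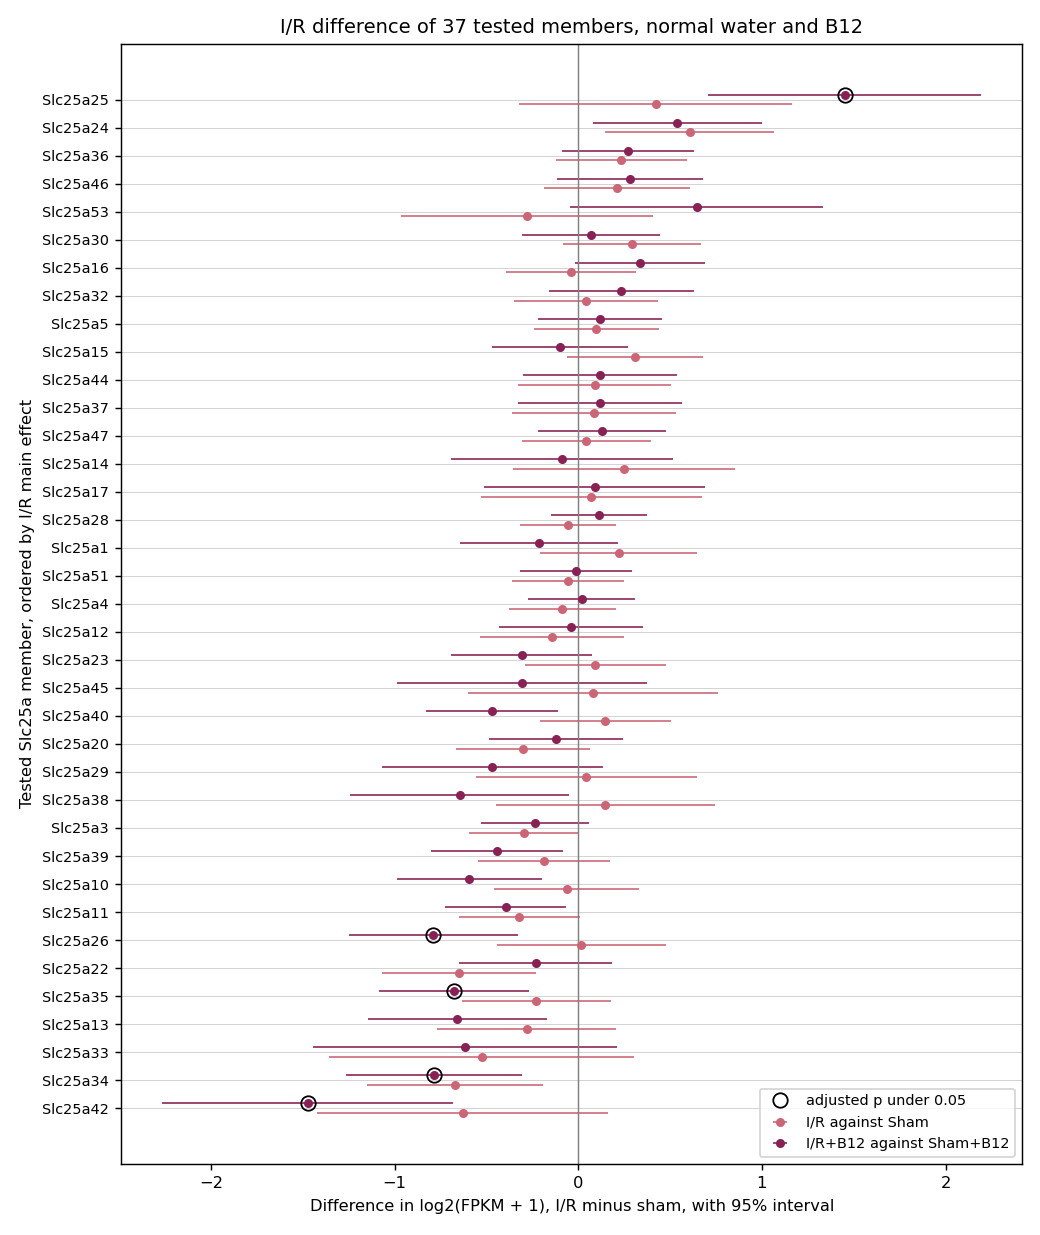
Difference in log2(FPKM + 1) between I/R and sham for 37 tested members, on normal water and under B12, with 95% intervals from limma; black rings mark an adjusted p under 0.05. The 5 ringed members are all from the comparison under B12, with Slc25a25 at 1.45 and Slc25a42 at -1.47.

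Slc25a42, a coenzyme A carrier, had the largest decrease in the family under B12 and in the main effect. It was at 24.69, 24.05 and 29.86 FPKM in Sham and 24.64, 24.9 and 32.01 in Sham+B12. I/R libraries were at 13.49, 16.4 and 20.25, and I/R+B12 libraries at 16.97, 3.99 and 10.44. All 6 injured libraries were below all 6 sham libraries. The part of cardiomyocyte content in this difference was not tested. Slc25a42 fell by 1.47 under B12 (SE 0.36, adjusted p 0.0342 with limma), from 27.2 ± 4.18 to 10.5 ± 6.49 FPKM (SD, n = 3). It fell by 1.05 in the main effect (SE 0.26, adjusted p 0.0332). On normal water the difference was -0.63 (95% interval -1.42 to 0.16, adjusted p 0.485). Without I/R+B12 2, which had 3.99 FPKM, the difference under B12 was -0.96 (adjusted p 0.0705).

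Slc25a34, a carrier whose substrate is not well defined, had the smallest adjusted p of the family in the main effect. Sham libraries were at 95.65, 84.3 and 140.48 FPKM and Sham+B12 libraries at 98.92, 77.72 and 95.7. I/R libraries were at 62.15, 61.06 and 72.96, and I/R+B12 libraries at 47.07, 42.4 and 69.97. The injured and the sham libraries did not overlap, and the highest injured values were those of I/R 3 and I/R+B12 3. Slc25a34 fell by 0.73 in the main effect (SE 0.15, adjusted p 0.0263 with limma) and by 0.79 under B12 (SE 0.22, adjusted p 0.0445). On normal water it was -0.67 (SE 0.22, adjusted p 0.382). With median-ratio scaling the difference of Slc25a34 under B12 did not pass (-0.76, adjusted p 0.0579). The mean over the 6 injured libraries was 0.6 of that over the 6 sham libraries. Slc25a34 and Slc25a42 were the only members whose 6 injured libraries did not overlap the 6 sham libraries: 2 of 38 were lower without overlap and 0 of 38 higher, against 0.646% and 3.62% of all tested genes.

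**Figure D3:**
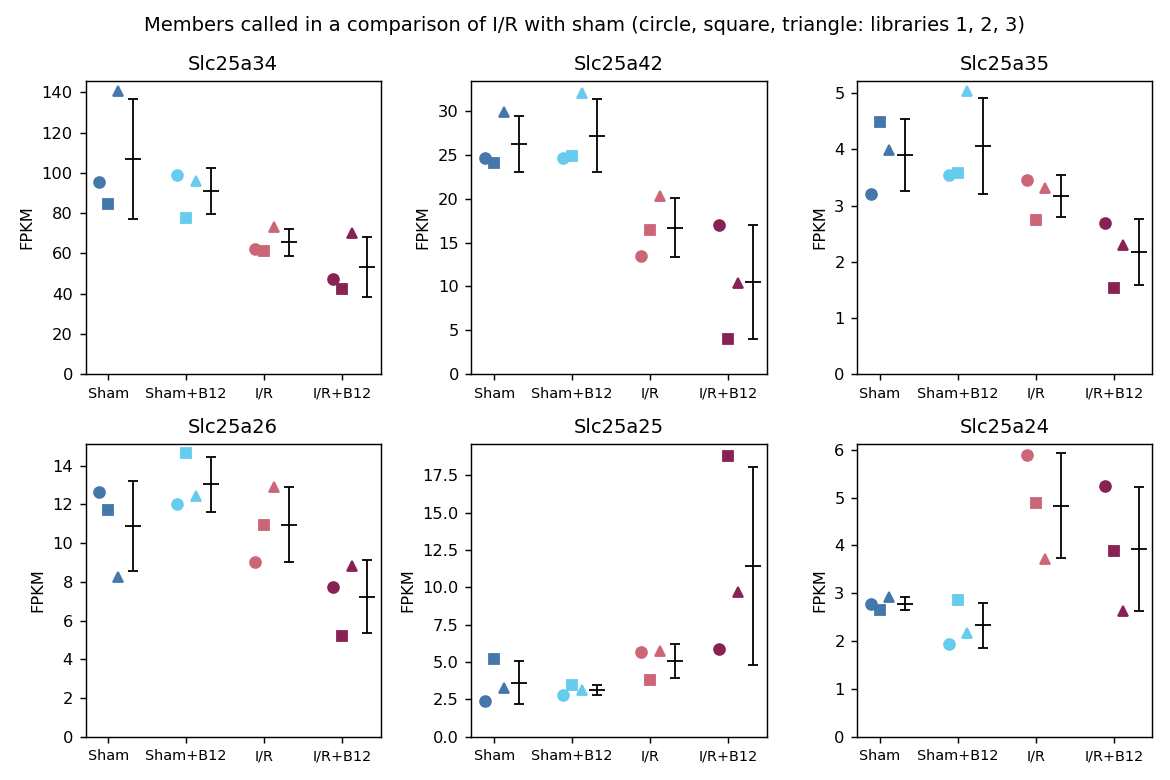
FPKM of the 6 members called in a comparison of I/R with sham, by group; symbols are libraries 1 (circle), 2 (square) and 3 (triangle), and the bars beside them give the mean and SD of 3 libraries. Slc25a34 and Slc25a42 are lower in all 6 injured libraries than in all 6 sham libraries, and I/R+B12 2 has the lowest Slc25a42 (3.99 FPKM) and the highest Slc25a25 (18.77 FPKM).

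Promoters are shown for the 3 members called both under B12 and in the main effect. The sequences are the 250 bases before the RefSeq transcript start (GRCm38.p6), 5′ to 3′, of Slc25a42 (chr8:70212282-70212531, minus strand), Slc25a34 (chr4:141623835-141624084, minus strand) and Slc25a25 (chr2:32451471-32451720, minus strand). Capitals mark the CCAAT box (CCAAT) and the GC box (GGGCGG) on either strand.
Slc25a42: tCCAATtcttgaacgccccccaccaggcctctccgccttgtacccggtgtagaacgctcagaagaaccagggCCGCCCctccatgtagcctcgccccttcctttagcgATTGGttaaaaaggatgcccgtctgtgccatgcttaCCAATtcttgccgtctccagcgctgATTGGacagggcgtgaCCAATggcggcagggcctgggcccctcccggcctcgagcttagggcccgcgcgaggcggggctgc
Slc25a34: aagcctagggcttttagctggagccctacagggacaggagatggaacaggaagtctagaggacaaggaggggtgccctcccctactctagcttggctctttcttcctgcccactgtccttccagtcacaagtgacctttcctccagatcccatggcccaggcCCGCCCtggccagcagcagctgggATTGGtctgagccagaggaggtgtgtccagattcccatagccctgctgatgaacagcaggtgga
Slc25a25: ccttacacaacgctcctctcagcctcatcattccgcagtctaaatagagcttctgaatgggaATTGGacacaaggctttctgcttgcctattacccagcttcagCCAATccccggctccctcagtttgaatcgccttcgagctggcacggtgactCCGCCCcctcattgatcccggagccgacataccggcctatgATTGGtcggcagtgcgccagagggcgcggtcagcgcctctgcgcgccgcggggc
Slc25a42 held 5 CCAAT matches, a number reached by 0.213% of the promoters listed. Slc25a25 held 3 (2.79%) and Slc25a34 held 1 (33.8%), and each held 1 GC box. For Slc25a25, RefSeq lists 3 starts; the one nearest the annotated 5′ end of the gene is shown, and expression per gene does not tell which start was used. Promoters were found for 36 of the 47 members. Of these, 24 held a GC box (66.7%, and 32.7% of the 32851 promoters of the table, which lists alternative starts of a gene) and 16 a CCAAT box (44.4% and 33.8%). The E-box CACGTG was found in 6 of 36 (16.7% and 6.02% of all), TGACGTCA, the cAMP response element, in 1 (2.78% and 1.55%), and TATAAA in 1 (2.78% and 12.4%). Neither TCAAGGTCA, an element bound by estrogen-related receptors, nor the palindrome bound by NRF1 was in any of the 36 windows, and they were in 0.387% and 0.782% of all. Both strands were searched.

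Slc25a25, a calcium-dependent carrier of ATP-Mg and phosphate, had the largest increase under B12 and in the main effect. It was at 2.4, 5.22 and 3.25 FPKM in Sham, 2.82, 3.49 and 3.13 in Sham+B12, 5.7, 3.79 and 5.72 in I/R libraries, and 5.84, 18.77 and 9.71 in I/R+B12. The 3 I/R+B12 libraries were above the other 9, while the I/R libraries overlapped with Sham through Sham 2 and I/R 2. Slc25a25 rose by 1.45 under B12 (SE 0.34, adjusted p 0.0301 with limma), from 3.15 ± 0.335 to 11.4 ± 6.64 FPKM, and by 0.94 in the main effect (SE 0.24, adjusted p 0.0369). On normal water the difference was 0.42 (SE 0.34). The main effect of Slc25a25 did not pass with median-ratio scaling (0.89, adjusted p 0.0608) or quantile normalization (0.80, 0.0686), nor without Sham 3 and I/R 3 (0.88, 0.0666). Without I/R+B12 2 the increase under B12 was 1.05 (adjusted p 0.086).

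Slc25a24, a related calcium-dependent ATP-Mg/phosphate carrier, was called in the main effect alone. Its values were 2.78, 2.66 and 2.92 FPKM in Sham, 1.95, 2.86 and 2.18 in Sham+B12, 5.9, 4.88 and 3.72 in I/R libraries, and 5.25, 3.89 and 2.64 in I/R+B12. The injured libraries were above the sham libraries except I/R+B12 3, and the lowest injured values were again those of I/R 3 and I/R+B12 3. Slc25a24 rose by 0.57 (SE 0.15, adjusted p 0.0378 with limma), with differences of 0.61 on normal water and 0.54 under B12 that did not pass (adjusted p 0.392 and 0.106). Neutrophil scores were also lowest among injured libraries in I/R 3 (-1.50) and I/R+B12 3 (-0.12), against 2.02 to 3.05 in the other 4, and the part of cell influx in the change of Slc25a24 was not tested. The third member of this calcium-regulated group, Slc25a23, was at 20.9 FPKM on average and had a main effect of -0.11 (95% interval -0.38 to 0.16).

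Slc25a26, which imports S-adenosylmethionine, the methyl donor made in the B12-dependent methionine cycle, was called lower under B12. It was at 11.99, 14.65 and 12.42 FPKM in Sham+B12 and 7.75, 5.18 and 8.79 in I/R+B12, without overlap. Sham was at 12.63, 11.72 and 8.25 and I/R at 9.02, 10.95 and 12.88, which overlapped. Slc25a26 fell by 0.79 under B12 (SE 0.21, adjusted p 0.0405 with limma), and the difference on normal water was 0.02. The interaction (how far the B12 and plain-water I/R differences departed from each other, B12 minus plain) was -0.81 (95% interval -1.45 to -0.16), the smallest p of any member for the interaction, but did not pass (p 0.0192, adjusted p 0.401). The difference on normal water changed sign with median-ratio scaling (-0.13) and other settings. Exons of Slc25a26 overlap those of Lrig1 on the opposite strand (8.93 FPKM, -0.35 under B12, adjusted p 0.103), and without stated strand-specific counting their reads cannot be told apart.

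Slc25a35, a carrier without an established substrate, was at 3.54, 3.58 and 5.04 FPKM in Sham+B12 and 2.69, 1.53 and 2.29 in I/R+B12. Sham was at 3.21, 4.48 and 3.99 and I/R at 3.45, 2.74 and 3.31. The B12 groups did not overlap and the groups on normal water did. Slc25a35 fell by 0.68 under B12 (SE 0.19, adjusted p 0.0433 with limma), and the main effect of -0.45 missed the threshold (adjusted p 0.051). Its exons overlap those of Rangrf, which was at 72.4 FPKM (-0.43 under B12, adjusted p 0.212), so its value is uncertain. Slc25a25 has a like overlap with Naif1, at 1.08 FPKM.

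Among the carriers of high abundance, the ADP/ATP carriers Slc25a4 and Slc25a5 had small main effects. Slc25a4 was at 3105 ± 127 FPKM in Sham, 3231 ± 218 in Sham+B12, 2932 ± 291 in I/R libraries and 3300 ± 583 in I/R+B12, and its main effect was -0.03 (95% interval -0.24 to 0.17). Slc25a5 had a main effect of 0.11 (-0.13 to 0.35). Slc25a3 was at 1436, 1245 and 1309 FPKM in Sham and 1081, 1027 and 1138 in I/R, without overlap, and at 1478, 1304 and 1477 in Sham+B12 and 1148, 1028 and 1475 in I/R+B12, where I/R+B12 3 lay with the sham libraries. Its main effect of -0.27 did not pass (SE 0.10, adjusted p 0.0886 with limma). Among the 6 tested adenine nucleotide and phosphate carriers, Slc25a24 and Slc25a25 were the members called higher in the main effect, and none was called lower. Of all tested genes 8.36% were called higher and 1.71% lower.

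The carboxylate and acylcarnitine carriers had 0 of 4 tested members called in any comparison. Of all tested genes 10.4% were called under B12, 10.1% in the main effect and 0.0% in the other comparisons. Slc25a11, of the malate-aspartate shuttle, was at 324 ± 9.83 FPKM in Sham, 341 ± 21.9 in Sham+B12, 262 ± 48.0 in I/R libraries and 261 ± 45.9 in I/R+B12. The values of I/R 3 (316.81) and I/R+B12 3 (313.41) were close to sham, and those of the other 4 injured libraries were between 228 and 241. Its main effect was -0.36 (SE 0.11, adjusted p 0.0541 with limma), and it was called in 7 of 21 alternative fits, among them those without I/R 3, without I/R+B12 3 and with a filter at 5 FPKM. Slc25a20 was at 126 ± 21.7 FPKM in Sham, 101 ± 5.75 in I/R, 125 ± 10.8 in Sham+B12 and 116 ± 23.0 in I/R+B12 (main effect -0.21, adjusted p 0.241). Slc25a10, the dicarboxylate carrier, was at 9.51 ± 0.613 FPKM in Sham+B12 and 6.08 ± 1.57 in I/R+B12 (-0.59, adjusted p 0.0568), and at 9.46 ± 1.17 and 9.03 ± 1.36 on normal water. Slc25a1, the citrate carrier, had a main effect of 0.00 (95% interval -0.30 to 0.31).

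Of the 9 tested amino acid carriers none was called, where 10.4% of all tested genes were under B12 and 10.1% in the main effect. Negative differences were found in 8 of 9 under B12 (median -0.44), beside 4 of 9 on normal water (median 0.04). Of all tested genes 51.9% were negative under B12 and 30.9% on normal water. Slc25a22, a glutamate carrier, had the smallest p of any member on normal water (-0.65, SE 0.19, adjusted p 0.378). It was at 24.23, 21.58 and 26.59 FPKM in Sham and 16.51, 15.1 and 13.39 in I/R, without overlap, and its main effect was -0.44 (adjusted p 0.0581). Slc25a13 was at 45.38, 40.07 and 47.04 FPKM in Sham+B12 and 29.8, 19.91 and 35.17 in I/R+B12 (-0.66, adjusted p 0.0737), and I/R 3 (47.23) lay with Sham (37.32 to 47.78). Slc25a39 had a main effect of -0.32 (adjusted p 0.0951), and Slc25a38, the glycine carrier used for haem, was at 12.85, 5.24 and 8.96 FPKM in I/R+B12 and 14.51, 13.41 and 13.59 in I/R. Slc25a44, which carries branched-chain amino acids, had a main effect of 0.10 (95% interval -0.19 to 0.40).

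Among the cofactor and nucleotide carriers 2 of 9 were called lower under B12, Slc25a42 and Slc25a26, against 3.62% of all genes. In the main effect 1 of 9 was called lower (Slc25a42), against 1.71%. Both are among the called members given above. Slc25a33, a pyrimidine nucleotide carrier, varied widely within groups, at 22.79, 14.55 and 7.57 FPKM in Sham, and had a main effect of -0.57 (95% interval -1.16 to 0.02). Slc25a51 had a main effect of -0.03 (95% interval -0.25 to 0.18), and Slc25a32, a folate and FAD carrier, 0.14 (-0.14 to 0.42). The mitoferrins, which bring iron into mitochondria, were not called: Slc25a28 had 0.03 (-0.16 to 0.21) and Slc25a37 0.10 (-0.21 to 0.42). Of the uncoupling protein-like members, Slc25a30 had 0.18 and Slc25a14 0.08.

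Ratios within pairs of carriers of like substrates were compared between the 6 injured and 6 sham libraries by an exact permutation test of log2 ratios within each water (400 arrangements, smallest p 0.005), with 5 pairs. The ratio of Slc25a23 to Slc25a25 was between 3.83 and 8.12 in sham libraries and between 0.706 and 6.18 in injured ones. It was lower by 1.04 on the log2 scale after injury in the mean (2.39 in sham and 1.34 in injured libraries, exact p 0.015, adjusted p 0.075). The difference of this pair was -0.33 on normal water and -1.76 under B12. Slc25a12 to Slc25a13, the aspartate/glutamate carriers of the malate-aspartate shuttle, was between 1.79 and 2.55 in sham libraries and between 3.13 and 3.39 in I/R+B12, and it was 2.61, 2.58 and 1.82 in I/R 1, 2 and 3. Its difference was 0.38 (exact p 0.03, adjusted p 0.075). Slc25a33 to Slc25a36 differed by -0.82 (exact p 0.055, adjusted p 0.0917). Slc25a4 to Slc25a5 was between 10.3 and 16.7 throughout (-0.14, exact p 0.22, adjusted p 0.275), and Slc25a37 to Slc25a28 differed by 0.07 (exact p 0.64). No pair passed after adjustment over the 5. Without Sham 3 the adjusted p stood at the threshold, 0.05, for Slc25a12 to Slc25a13 (0.43), Slc25a33 to Slc25a36 (-1.08) and Slc25a23 to Slc25a25 (-1.04). The adjusted p was also 0.05 for Slc25a12 to Slc25a13 without I/R 3 (0.49) and for Slc25a23 to Slc25a25 without Sham 2 (-1.17).

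**Figure D4:**
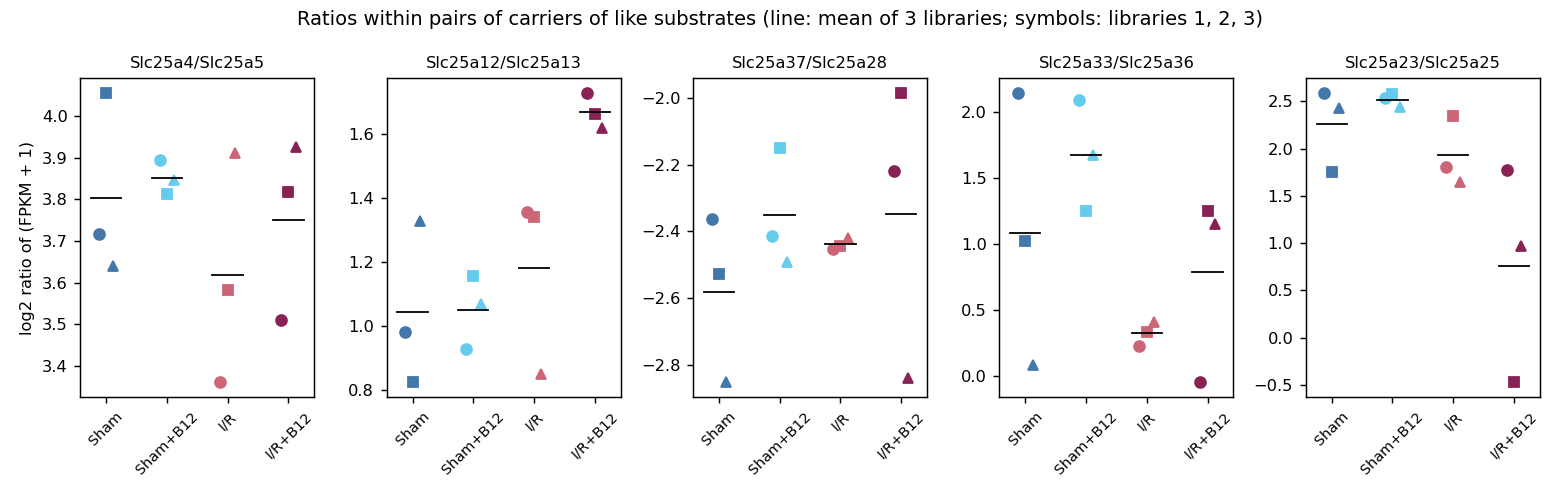
Log2 ratio of (FPKM + 1) within 5 pairs of carriers of like substrates, by group; symbols are libraries 1 (circle), 2 (square) and 3 (triangle) and lines the mean of 3, with a separate vertical scale for each pair. The 3 I/R+B12 libraries have the highest Slc25a12 to Slc25a13 ratios of all 12 (3.13 to 3.39 as plain ratios).

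B12 itself gave no called member. In I/R+B12 against I/R limma called 0 of 38 members and 0.0% of all genes, and 7 of 38 had an unadjusted p under 0.05 (28.5% of all genes). The smallest p was that of Slc25a40, a glutathione carrier (-0.60, SE 0.16, adjusted p 0.0873), at 2.46, 2.05 and 2.7 FPKM in I/R libraries and 1.78, 0.88 and 1.16 in I/R+B12. The next were Slc25a1 (-0.65, adjusted p 0.0926), Slc25a10 (-0.52, 0.107), Slc25a25 (0.92, 0.12) and Slc25a26 (-0.55, 0.125). The median member was at -0.16 and the median of all genes at -0.21, and with median-ratio scaling these were 0.089 and 0.016. Groups did not overlap in 5 of 38 members, against 23.2% of all genes. In that comparison 10 members were called without I/R+B12 1 (9 lower), when 33.9% of all genes were.

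In Sham+B12 against Sham limma again called 0 of 38 members and 0 of all genes, and 0 of 38 had an unadjusted p under 0.05 (1.69% of all genes). The members with the smallest p were Slc25a16 (-0.26), Slc25a17 (-0.43), Slc25a22 (-0.27), Slc25a53 (-0.40) and Slc25a26 (0.26), each with an adjusted p of 0.999. Slc25a16, a coenzyme A carrier, and Slc25a17, of peroxisomes, did not overlap between the groups: Slc25a17 was at 7.63, 9.85 and 10.37 FPKM in Sham and 6.98, 6.37 and 6.48 in Sham+B12. Groups did not overlap in 3 of 38 members, against 10.5% of all genes. For the interaction limma called 0 of 38 members and 0 of all genes, with 2 of 38 at an unadjusted p under 0.05 (12.3% of all genes). These were Slc25a26 and Slc25a40 (-0.62, adjusted p 0.401), followed by Slc25a25 (1.03, 0.41), Slc25a53 (0.92, 0.411) and Slc25a10 (-0.53, 0.411).

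Other genes of mitochondrial transport were read from lists, where 10.4% of all tested genes were called under B12 and 10.1% in the main effect. Of 12 other inner membrane carriers 1 was called lower under B12 and in the main effect. This was Abcb8, an ABC transporter, at 44.29, 29.91 and 39.77 FPKM in Sham+B12 and 24.38, 14.26 and 24.9 in I/R+B12 (-0.84, adjusted p 0.0352 with limma). Of 13 genes of carrier import, the outer membrane receptor Tomm20 rose under B12 (0.57, adjusted p 0.0362) and the small chaperone Timm8a1 in the main effect (0.59, adjusted p 0.0284). Of 7 regulators of mitochondrial biogenesis, Nrf1, a transcription factor of respiratory genes, rose under B12 (0.72, adjusted p 0.0337) and in the main effect (0.57, adjusted p 0.0272), and 6 of 7 had negative differences in both (median -0.36 and -0.26). None of 7 calcium uniporter genes, 3 outer membrane channels of the Vdac family and 4 tested carriers named outside the Slc25a scheme (Ucp2, Ucp3, Mtch1 and Mtch2) was called, with main effect medians of -0.04, -0.20 and -0.17. The 8 ventricular cardiomyocyte markers had negative main effects in 8 of 8 (median -0.28) with none called, and the part of this shift in the lower carriers was not tested.

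The calls depended on which libraries were fitted. Under B12 the 5 calls became 0 when Sham+B12 1, Sham+B12 2, Sham+B12 3 or I/R+B12 2 was left out, and 1 when I/R 2 was (Slc25a25), where 0.0%, 0.246%, 0.0%, 0.377% and 4.93% of all genes were called. They were 2 without Sham 1 or Sham 2 (6.73% and 6.38% of all genes), 3 without I/R 1 (6.93%), 4 without Sham 3 (11.1%), and 8 when the first or the third I/R+B12 library was left out (29.5% and 12.2%). Sham and I/R libraries are not part of the comparison under B12, so leaving one out kept each difference. Only the spread estimated over all groups and the p-values changed there. In the main effect the 4 calls became 0 without Sham 1, Sham+B12 1, Sham+B12 3, I/R 1 or I/R 2, where between 0.0% and 0.0154% of all genes were called. They were 1 without Sham 2 or Sham+B12 2 (Slc25a34; 2.18% and 4.32%), and 2 without I/R+B12 2 (Slc25a34 and Slc25a42; 4.71%). They became 3 without Sham 3 (10.7% of all genes), 6 without I/R 3 (16.3%), 8 without I/R+B12 1 (20.8%), and 10 when the third I/R+B12 library was left out (17.4%). Without both Sham 3 and I/R 3, 0 of 38 members were called on normal water, where 0.431% of all genes were. Under B12, a comparison that holds neither library, 4 members were then called (12.8% of all genes), and Slc25a35 was lost. In the main effect 6 were then called (17.7% of all genes), where Slc25a11, Slc25a13 and Slc25a26 were gained and Slc25a25 lost. No called difference changed sign in any of these fits.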

How the data were processed

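Heart RNA of 12 libraries was sequenced paired-end after poly(A) selection, per the labels' protocols. The authors deposited 1 table of FPKM with a column per library and a mean per group, which was not used. HISAT2, StringTie and mm10 are named in the submitters' processing notes, without versions. The annotation release and use of strand are not given in the sources used here. Coordinates are from GENCODE M21 on the same mouse assembly. Libraries were grouped by treatment label. The test was limma 3.58.1 (R 4.3.3, trended variance) on log2(FPKM + 1) of all 12 libraries, for genes at 1 FPKM or more in 3 of them. Benjamini-Hochberg adjustment ran over the 13001 genes of each contrast. The fit was tested on simulated data. Depth was estimated from the steps between low FPKM of genes with 1 transcript, of which 83.9% to 89.8% lay within 0.15 of whole fragments. It covers counting error only, and no count test was run. Members, lists, tests and alternatives were chosen with earlier results of these data known. The fit without Sham 3 and I/R 3 was added after seeing the data. Named members were all those called, the 5 of smallest p where fewer were called, the 10 most abundant and the pairs; other members are named as examples of their group. Replicate numbers were not used as pairs: same-numbered libraries of different groups had a mean correlation of deviations of 0.01 over 18 pairs (-0.41 to 0.39). Figures were drawn with matplotlib 3.10.9. Some genes that entered the fits and counts are not reported or drawn individually here.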

Additional observations from a re-analysis of the deposited data

How the results depend on the processing

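Signs of the 9 called differences held under every alternative run, and their adjusted p did not always stay under 0.05. With no filter on low values, 0 Slc25a members and 0 related mitochondrial transport genes were called under B12 or in the main effect. Of all genes 0.971% and 1.02% were called there. With the compared groups alone 0 and 0 were called under B12, and 1.85% of all genes. With quantile normalization 8 members were called in both, with 13.8% and 10.3% of all genes. Library weights, whose fit did not reach its tolerance, gave 13 members and 19 related genes for I/R against Sham, 9 and 8 under B12, 17 and 16 in the main effect, 12 and 8 for I/R+B12 against I/R, and 1 and 3 for the interaction, where 33.9%, 23.7%, 36.4%, 33.3% and 14.1% of all genes were called. A filter at 5 FPKM gave 5 related genes in the main effect (13.9% of all genes), as did leaving out Sham 3 and I/R 3 together (17.7%). Same-numbered libraries share only a number: the replicate block gave 4 members under B12 (8.13% of all genes). In the main effect it gave 5 members and 5 related genes (10.2% of all genes). Along with the median of all genes, the median member moved to -0.11 (median-ratio scaling) and -0.16 (quantile) for I/R against Sham, to 0.089 and 0.012 for I/R+B12 against I/R, and to 0.10 for the interaction with median-ratio scaling. For Slc25a26 the I/R difference on normal water turned to -0.13 with median-ratio scaling, -0.16 with quantile normalization, -0.10 with weights and -0.27 without Sham 3 and I/R 3. Leaving out 1 library at a time, members called ranged from 0 to 8 under B12, 0 to 10 in the main effect, 0 to 10 for I/R+B12 against I/R and 0 to 3 for the interaction. Related genes ranged from 0 to 12, 0 to 8, 0 to 11 and 0 to 2 in that order. The share of all genes called in these fits ranged from 0.0% to 29.5%, 20.8%, 33.9% and 14.1% in that order. The median member ranged from -0.26 to -0.023 under B12 and from -0.23 to -0.016 for I/R+B12 against I/R. The I/R difference of Slc25a26 on normal water ranged from -0.15 to 0.14. Pair differences ranged from 0.32 to 0.49 for Slc25a12/Slc25a13, -0.0096 to 0.16 for Slc25a37/Slc25a28, -1.08 to -0.67 for Slc25a33/Slc25a36 and -1.25 to -0.68 for Slc25a23/Slc25a25. Where a library of the compared groups was left out, the cause of a change in calls was not tested. With 3 libraries a group, the number of libraries limits the precision of each difference.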

Other observations

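Single libraries often held the extreme of a member. I/R+B12 2 was the lowest of the 12 libraries in 17 of the 38 tested Slc25a members, and it was the lowest in 34.8% of all tested genes.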
